A study of Mus musculus with 37 samples.

Results

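The second step of a wild-type (WT) osteoclast culture, from day 2 to day 4, was followed by RNA-seq. The groups were the 2 WT libraries of day 4 and the 2 WT libraries of day 2, chosen by genotype and day alone, 4 of the 37 samples of the series. The cells of every group were mouse bone-marrow-derived macrophages, labelled with osteoclastic differentiation as the treatment at each day, day 0 included; the cytokines added are not given in the labels. The same fit held 8 more libraries, the 2 of WT day 0 and those of Arid1a Knock out (KO) cells at days 0, 2 and 4. The 12 ATAC-seq and 13 CUT&Tag samples were not analysed here. The labels do not say how Arid1a was deleted, how many animals were used or whether the 2 libraries of a group came from separate cultures, so p-values may measure technical spread only.

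Osteoclasts are the multinucleated cells that dissolve bone. They form when macrophage precursors receive M-CSF through the receptor Csf1r and RANKL through the receptor RANK (Tnfrsf11a), which act through AP-1 and NF-kB on Nfatc1, the regulator of the osteoclast programme. The precursors then fuse, seal a space against the bone, pump acid into it and secrete the protease cathepsin K, work that needs many mitochondria.

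Depth was alike over the libraries. The 4 libraries held 16383765 to 18209804 counts, and all 12 held 16282164 to 18608353. The table lists 23170 genes, and 12774 passed the low-count filter. Between replicates, 272 of these differed by over 2-fold at WT day 2 and 127 at WT day 4, with 1 CPM (counts scaled to a common library size) added. On the first principal component (48.8% of the variance) the WT day 4 libraries lay at 123 and 125 and the WT day 2 libraries at -34.6 and -30.7. The 10 genes with the most counts took 9.91% and 9.33% of the day 2 libraries and 5.69% and 6.2% of the day 4 libraries, and the TMM scaling factors were 0.990 and 1.01 against 1.13 and 1.11. The median of all genes moved by 0.002 in log2 with TMM and by 0.038 on the TPM scale. Arid1a held 169 and 175 CPM at day 2 and 164 and 135 CPM at day 4 in WT (log2 fold change -0.20 ± 0.14, adjusted p = 0.244, not called), and KO libraries held 118 and 117 CPM at day 2 and 84.7 and 98 CPM at day 4.

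About 1 in 2 genes changed between day 2 and day 4. Of the 12774 tested, 6619 (51.8%) were called, meaning an adjusted p under 0.05 in edgeR's quasi-likelihood test with Benjamini-Hochberg adjustment over all genes. Of these, 3497 (27.4%) were higher and 3122 (24.4%) lower at day 4. Counts of rises and falls in the gene lists below stand beside these shares. Some genes are in more than 1 list, so list counts are not independent of each other. With a log2 fold change of at least 1 as well, 3689 (28.9%) were called, 1615 higher and 2074 lower. Leaving out replicate 1 or 2 of WT day 2 left 4559 or 4776 calls, and leaving out replicate 1 or 2 of WT day 4 left 4594 or 4611. Both day 4 libraries lay outside both day 2 libraries for 10695 genes (83.7%), so separation alone marks little here. Levels below are CPM for replicates 1 and 2 in that order, and log2 fold changes are day 4 against day 2 ± SE (n = 2 libraries a group). In RNA from a whole culture, fewer cells of a type and less RNA per cell cannot be told apart.

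**Figure D1:**
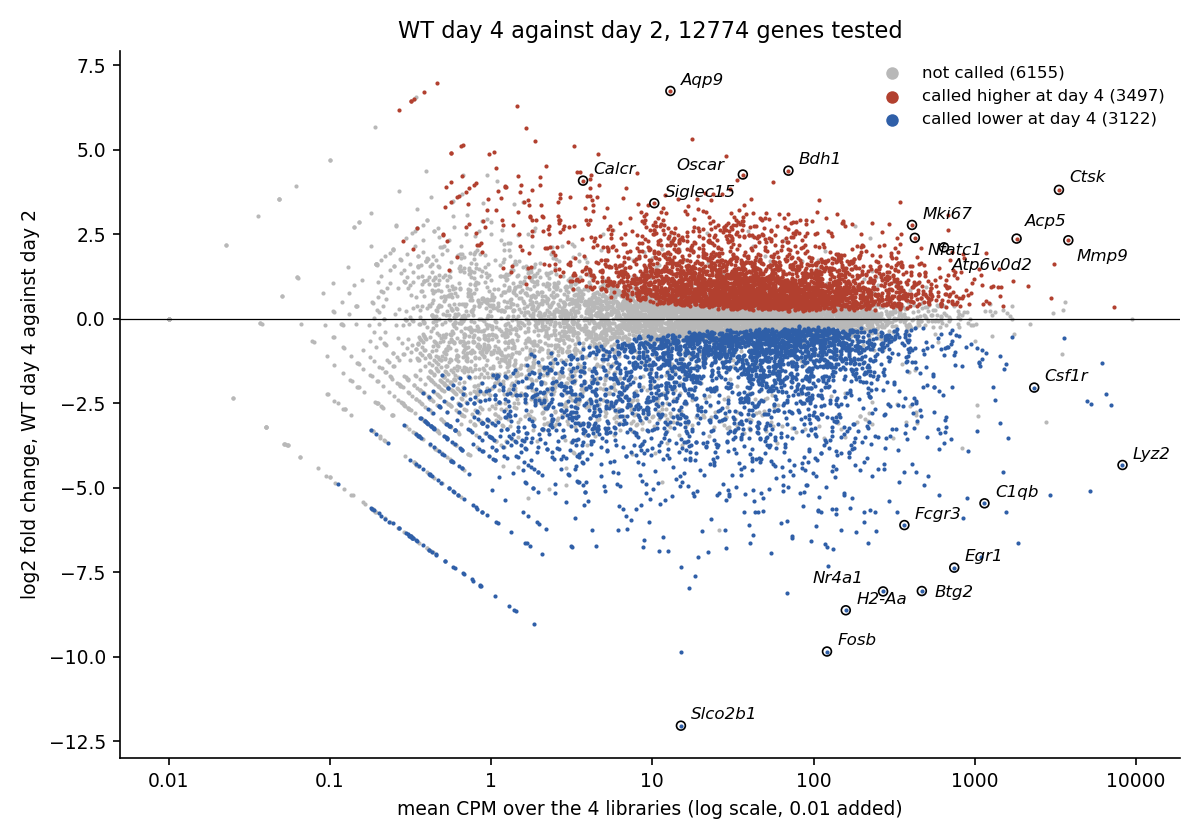
Each point is one of the 12774 genes tested, with its mean CPM over the 4 WT libraries (log axis) and its log2 fold change, day 4 against day 2. Red points were called higher (3497), blue points lower (3122) and grey points not called (6155). The falls reach further than the rises among well-counted genes, with Fosb at -9.84 and Aqp9 at 6.74. Points on slanted lines at the lower left have few or no counts at day 4, and their fitted values, that of Slco2b1 included, are no measure of size.

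Genes for dissolving bone matrix parted in opposite directions. Of 14 resorption enzymes tested, 5 rose and 6 fell, with a median log2 fold change of -0.41. Over all genes 27.4% were higher and 24.4% lower. Ctsk, the cathepsin that cuts bone collagen, held 469 and 410.3 CPM at day 2 and 5371 and 7036 CPM at day 4 (log2 fold change 3.82 ± 1.09, adjusted p = 0.0197). Acp5, the tartrate-resistant acid phosphatase, held 549 and 623 CPM at day 2 and 2604 and 3483 CPM at day 4 (log2 fold change 2.38 ± 0.67, adjusted p = 0.0182). Mmp9, a gelatinase, held 1124 and 1401 CPM at day 2 and 5555 and 7113 CPM at day 4 (log2 fold change 2.33 ± 0.54, adjusted p = 0.00765). Each of the 3 was higher in both day 4 libraries than in both day 2 libraries, and 83.7% of all genes did not overlap between the days. Ckb, brain creatine kinase, rose from 178 and 203 to 967 and 1392 CPM (2.63 ± 0.36). The general lysosomal cathepsins went the other way. Ctsb fell from 12067 and 9244 to 2354 and 2209 CPM (log2 fold change -2.22 ± 0.20, adjusted p = 8.13e-05), Ctsd from 9181 and 7510.1 to 1608 and 1472 CPM (-2.44 ± 0.24) and Ctsl from 1738 and 1373 to 638 and 549 CPM (-1.39 ± 0.22). Per length, Ctsk went from 645 and 570.5 TPM (the authors' length-scaled level) at day 2 to 7722 and 9880.1 TPM at day 4, while Ctsd went from 8295 and 6877 to 1518 and 1357 TPM. The matrix metalloproteinase genes Mmp12 (-3.04) and Mmp13 (-3.30) also fell, Mmp13 without a call by limma-voom (adjusted p = 0.0799). Ctsk was not called without replicate 1 (adjusted p = 0.0931) or 2 of WT day 2 (0.101), or without replicate 2 of WT day 4 (0.0625), nor Acp5 without the same libraries (0.0931, 0.0779 and 0.0735), nor Mmp9 without WT day 2 replicate 1 (0.061); their log2 fold changes stayed between 2.15 and 4.01 in these fits.

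Genes that acidify the resorption space rose. Of 11 acid secretion genes 7 rose and 0 fell (median 1.58), and of 18 V-ATPase genes, the subunits of the proton pump, 13 rose and 1 fell (median 0.99; 0.002 over all genes tested). Snx10, a sorting nexin needed for the ruffled border, held 132 and 110.4 CPM at day 2 and 519.7 and 611 CPM at day 4 (log2 fold change 2.22 ± 0.21, adjusted p = 0.000101). Slc4a2, the anion exchanger that brings chloride into the cell, held 99.5 and 109 CPM at day 2 and 501 and 604 CPM at day 4 (2.40 ± 0.34). Clcn7, a chloride transporter, held 233 and 212 CPM at day 2 and 519.6 and 637 CPM at day 4 (1.38 ± 0.21). In none of these did the days overlap, as in 83.7% of all genes, and none was called from day 0 to day 2. Tcirg1, the a3 pump subunit, rose from 476 and 509 to 777 and 881 CPM (log2 fold change 0.75 ± 0.14, adjusted p = 0.00243). Atp6v0a1, the a1 subunit gene, was the 1 pump gene that fell, from 158 and 149 to 29.5 and 29.8 CPM (log2 fold change -2.37 ± 0.22, adjusted p = 8.4e-05). Among other pump subunits, Atp6v1c1 rose by 1.58, Atp6v1d by 1.48 and Atp6v1h by 1.29 in log2. Atp6v0d2, the d2 subunit, and Car2, carbonic anhydrase 2, which makes the protons, were not called. Both separated by day, as did 83.7% of all genes. Atp6v0d2 held 249.8 and 232 CPM at day 2 and 921 and 1169.5 CPM at day 4 (log2 fold change 2.12 ± 0.79, adjusted p = 0.0518), and Car2 held 19.1 and 24 CPM at day 2 and 81.1 and 139 CPM at day 4 (log2 fold change 2.35 ± 0.88, adjusted p = 0.0534). Atp6v0d2 and Car2 were called when the 6 WT libraries (adjusted p = 0.0224 and 0.00289) or those of the comparison (4.53e-05 and 0.00314) were fitted alone, by DESeq2 (0.0242 and 0.00783) and on log2(TPM + 1) (0.0426 and 0.0494).

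Of 22 fusion genes tested, 6 rose and 6 fell (median 0.55), shares near the 27.4% higher and 24.4% lower over all genes, so the list as a whole did not stand apart and single members are described. Dcstamp and Ocstamp, the multispan membrane proteins that precursors need in order to fuse, were both higher. Dcstamp held 37.8 and 34.7 CPM at day 2 and 207 and 332 CPM at day 4 (log2 fold change 2.89 ± 0.92, adjusted p = 0.0298), and Ocstamp held 22.2 and 32.6 CPM at day 2 and 115 and 183 CPM at day 4 (log2 fold change 2.44 ± 0.53, adjusted p = 0.00602). Dock5, an activator of Rac, rose from 149.9 and 176 to 476 and 542 CPM (log2 fold change 1.65 ± 0.16, adjusted p = 0.000101). Siglec15, the sialic acid receptor of late osteoclast precursors that the series title names, held 0 CPM in both day 0 libraries, then 2.22 and 1.26 CPM at day 2 and 17.5 and 20.1 CPM at day 4 (log2 fold change 3.42 ± 1.09, adjusted p = 0.0383), or 61 counts over the day 2 group and 732 over the day 4 group. Falls came from membrane proteins that macrophages carry as well, such as the scavenger receptor Cd36 (-3.27), the tetraspanin Cd81 (-2.85) and the ATP-gated channel P2rx7 (-2.06). Leaving out any 1 of the 4 libraries ended the call of Siglec15 (adjusted p from 0.0986 to 0.172) and Dcstamp (0.0606 to 0.127), and leaving out WT day 2 replicate 1 that of Ocstamp (0.0505), while their fold changes kept their sign.

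Of 34 integrin and podosome genes 7 rose and 7 fell (median -0.09), below the 27.4% and 24.4% over all genes. Src, the kinase that organises the ruffled border, rose from 99.3 and 126 to 374 and 441 CPM (log2 fold change 1.85 ± 0.37, adjusted p = 0.00393), and Myo1e, a podosome myosin, from 131 and 138 to 512 and 554 CPM (1.99 ± 0.23). Itgav, the alpha-v integrin chain of the osteoclast vitronectin receptor, rose by 1.29 ± 0.38. Its partner Itgb3 held 60.2 and 41.5 CPM at day 2 and 176 and 149 CPM at day 4. The days did not overlap, as in 83.7% of all genes, and Itgb3 was not called (log2 fold change 1.67 ± 0.86, adjusted p = 0.135). It was called by limma-voom (adjusted p = 0.0325) and when the 6 WT libraries (0.00143) or those of the comparison (0.000816) were fitted alone. Itgam, the alpha-M chain that marks macrophages, fell from 1184 and 917 to 227 and 217 CPM (-2.24 ± 0.25). Itgav lost its call without any 1 of the 4 libraries (adjusted p from 0.0657 to 0.0977).

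Among receptor mRNAs, that of RANK rose and that of the M-CSF receptor fell. Tnfrsf11a, RANK itself, held 48.2 and 37.4 CPM at day 0, then 78.2 and 84.1 CPM at day 2 and 199 and 209.6 CPM at day 4 (log2 fold change 1.33 ± 0.13, adjusted p = 0.0001). Csf1r held 7381 and 7026 CPM at day 0, then 3821 and 3681 CPM at day 2 and 859 and 976 CPM at day 4 (log2 fold change -2.03 ± 0.14, adjusted p = 2.35e-05). The first rose and the second fell at both steps. Calcr, the calcitonin receptor, a marker of mature osteoclasts, held 0.388 and 0.421 CPM at day 2 and 5.61 and 8.41 CPM at day 4 (log2 fold change 4.09 ± 1.22, adjusted p = 0.0356), 14 counts over the day 2 group against 273 over the day 4 group. Below the receptors, the NF-kB subunit gene Rela (-1.02) and the MAP kinase gene Mapk3 (-1.44) fell, while the inhibitor gene Nfkbia rose (0.65). Over the whole list of RANK and M-CSF signalling, 7 of 33 genes rose and 11 fell (median -0.18; 27.4% and 24.4% over all genes). Of 18 genes of co-stimulation through ITAM adaptors 4 rose and 13 fell (median -1.57). Oscar, the collagen receptor of osteoclasts, held 2 and 5.18 CPM at day 2 and 57.7 and 80.7 CPM at day 4 (log2 fold change 4.27 ± 1.28, adjusted p = 0.0277). The Fc receptor gene Fcgr3 went from 773 and 668 to 11.2 and 9.84 CPM (log2 fold change -6.10 ± 0.29, adjusted p = 5.66e-06), and Trem2 fell by 2.58 ± 0.24. Leaving out any 1 of the 4 libraries ended the call of Calcr (adjusted p from 0.089 to 0.163) and of Oscar (0.0702 to 0.14).

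Of 27 transcription factor genes of the osteoclast 8 were higher and 13 lower (median -0.24). Over all genes 27.4% were higher, near the share here, and 24.4% lower. Nfatc1 held 129 and 141 CPM at day 2 and 694 and 733 CPM at day 4 (log2 fold change 2.40 ± 0.36, adjusted p = 0.00092), against 83.8 and 84.5 CPM at day 0, so its rise was called in the second step and not in the first (0.68, adjusted p = 0.19); whether the steps differ was not tested. Jdp2, an AP-1 partner of osteoclasts, rose from 158 and 193 to 719.7 and 776 CPM (log2 fold change 2.09 ± 0.35, adjusted p = 0.00152). Prdm1, the repressor Blimp1, rose from 76.1 and 75.8 to 205 and 199.7 CPM (1.41 ± 0.34; adjusted p = 0.0514 and 0.0522 without WT day 2 replicate 1 or 2), and Mitf by 0.56 ± 0.12. Ppargc1b, the coactivator of mitochondrial biogenesis, rose from 14.5 and 17.6 to 58.8 and 74.3 CPM (log2 fold change 2.05 ± 0.49, adjusted p = 0.00867; adjusted p = 0.062 without WT day 2 replicate 1). Falls included Zfp36l1 (-3.63), an RNA-binding protein, Cebpa (-3.10), a myeloid factor, Mef2c (-2.49) and Hif1a (-2.41), the hypoxia factor.

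**Figure D2:**
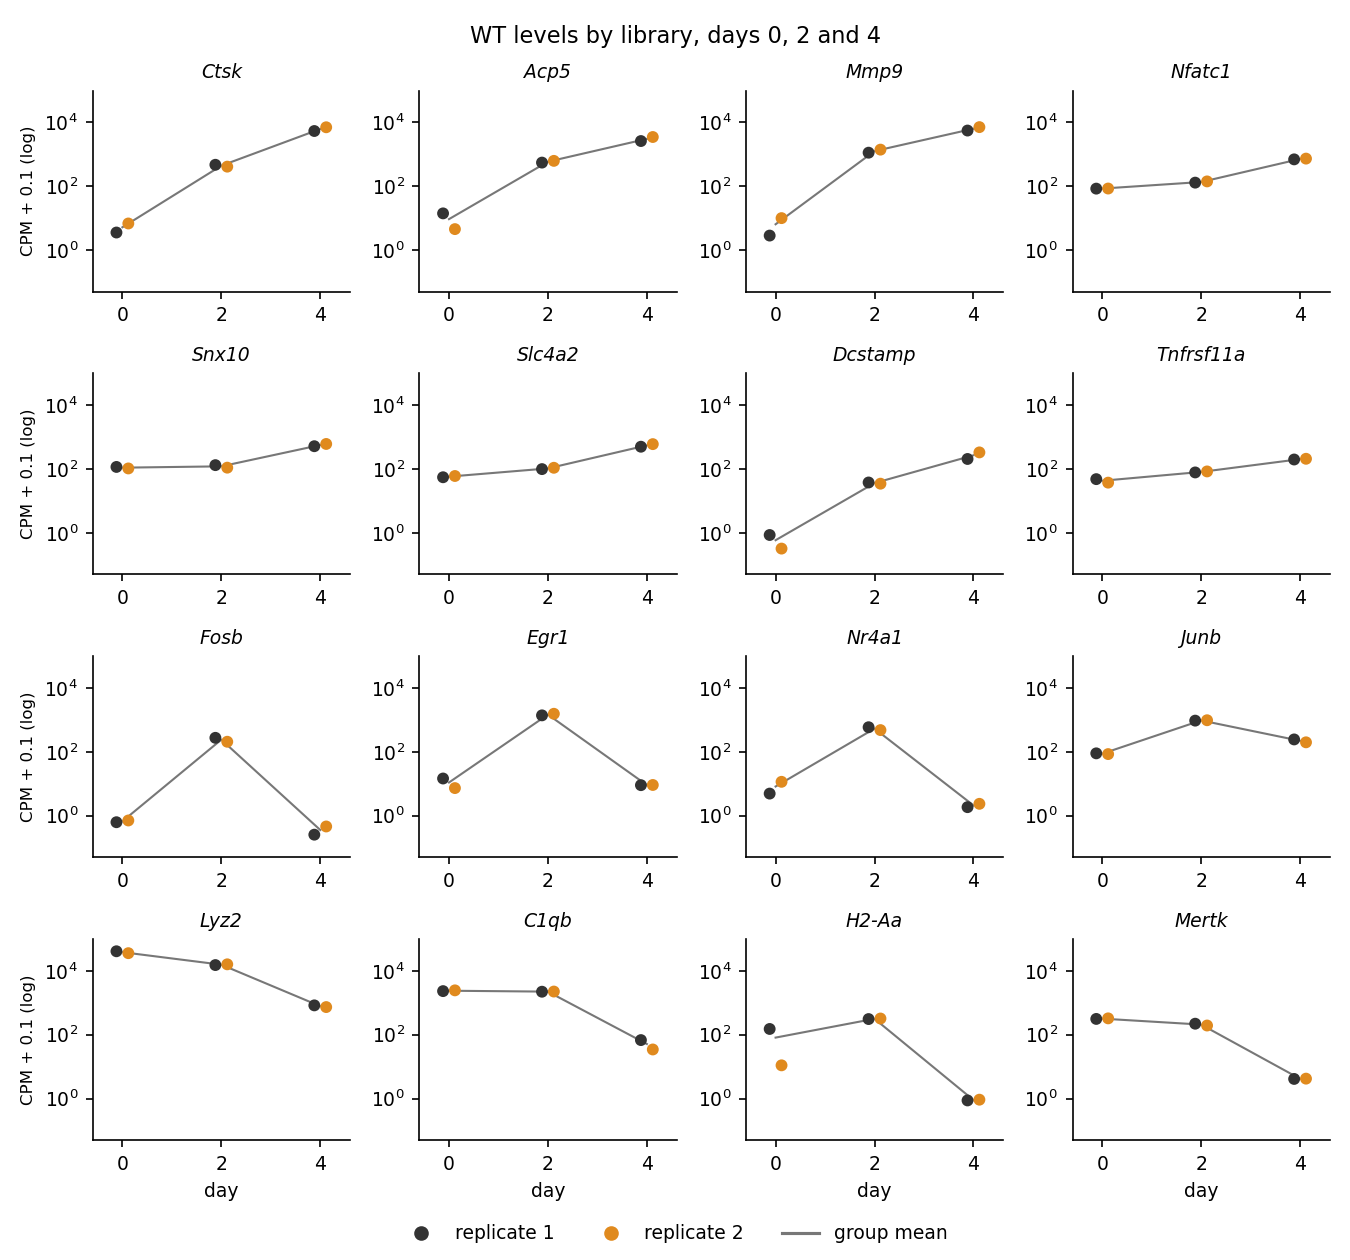
CPM plus 0.1 (log axis) of 16 genes in each WT library at days 0, 2 and 4, with replicate 1 in black, replicate 2 in orange and a line through the group means. The upper 2 rows hold osteoclast genes, with Ctsk at 5371 and 7036 CPM at day 4. The third row holds genes high at day 2 and lower at day 4, and the fourth row genes of the macrophage and of antigen presentation, with Lyz2 at 832 and 736 CPM at day 4.

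Immediate early genes that were high at day 2 fell by day 4. These are genes that signals switch on within minutes and that usually fall silent again. Of 35 tested, 29 had been called higher at day 2 than at day 0 (8.06% over all genes), and from day 2 to day 4 27 fell and 1, Spred1, rose (median -2.98). Their summed TPM was 973 and 900.2 at day 0, 8184 and 8527 at day 2 and 1300.4 and 1227 at day 4. Fosb held 0.524 and 0.608 CPM at day 0, then 276 and 208 CPM at day 2 and 0.154 and 0.359 CPM at day 4 (log2 fold change -9.84 ± 0.32, adjusted p = 1.49e-06). Egr1 held 14.5 and 7.24, then 1396 and 1565 CPM at day 2 and 8.95 and 9.07 CPM at day 4 (log2 fold change -7.36 ± 0.48, adjusted p = 2.42e-05). Nr4a1, an orphan nuclear receptor, held 4.83 and 11.4, then 593 and 482 CPM at day 2 and 1.75 and 2.26 CPM at day 4 (log2 fold change -8.06 ± 0.43, adjusted p = 8.59e-06). Day 2 stood apart from both other days in each of the 3, which the rule for naming lost genes required. Over all genes 83.7% did not overlap between days 2 and 4. The phosphatase genes Dusp1 (-6.00 ± 0.29) and Dusp5 (-6.24 ± 0.46), which switch off MAP kinases, fell with them, as did Btg2 (-8.05 ± 0.50), which restrains proliferation, and Ier3 (-4.61 ± 0.16).

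AP-1 genes fell but did not all return to the day 0 level. Of 17 tested, 10 fell and 3 rose (median -1.79). This list shares members such as Fosb with the immediate early genes, so the falls of the 2 lists are not independent. Fos held 27.3 and 7.01 CPM at day 0, then 708 and 826 CPM at day 2 and 198 and 182 CPM at day 4 (log2 fold change -2.01 ± 0.50, adjusted p = 0.0109), and at day 4 it was still called above day 0 (log2 fold change 3.47, adjusted p = 0.000781; 56.8% of all genes were called between these days). Jun held 45.1 and 30.7, then 485 and 535 CPM at day 2 and 77.9 and 93.3 CPM at day 4 (log2 fold change -2.57 ± 0.30, adjusted p = 0.000279), and Junb 89.9 and 85.2, then 954 and 982 CPM at day 2 and 246 and 199 CPM at day 4 (log2 fold change -2.12 ± 0.16, adjusted p = 3.87e-05), both still called above day 0 (1.18 and 1.35). The stress factor Atf3 fell from 504 and 453 to 5.15 and 7.28 CPM (-6.26 ± 0.53), below its day 0 values of 115 and 52.4 CPM. Fos was not called without WT day 4 replicate 1 (adjusted p = 0.0592) or replicate 2 (0.0683).

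Short promoter windows of these genes show what was searched for in sequence. RefSeq promoters of GRCm38.p6 (250 bases before to 50 after a start) were searched on both strands for 7 motifs; 10150 of the 12774 gene names matched, with 12968 windows. The CArG box, the site of serum response factor, was in 7 of the 33 windows of the immediate early genes (21.2%), in 14 of 292 windows (4.79%) of genes induced at day 2 and lost, in 5 of 284 (1.76%) of those kept, and in 1.3% of the windows of all tested genes. The 33 windows came from 26 genes. The lost class also holds immediate early genes such as Fosb and Egr1, so its count and theirs may share windows and are not independent. The AP-1 motif TGANTCA was in 1 of the 33 windows (3.03%) and in 5.45% of all. Dusp5 is shown for its pair of adjoining CArG boxes and Btg2 for a cAMP response element (CRE, TGACGTCA) beside a CCAAT box, with the matches in capitals, 5′ to 3′ along the gene's strand. A match is a run of letters and not a measured site. The Dusp5 window lies at chr19:53528895-53529194 on the plus strand, the Btg2 window at chr1:134079106-134079405 on the minus strand.
Dusp5: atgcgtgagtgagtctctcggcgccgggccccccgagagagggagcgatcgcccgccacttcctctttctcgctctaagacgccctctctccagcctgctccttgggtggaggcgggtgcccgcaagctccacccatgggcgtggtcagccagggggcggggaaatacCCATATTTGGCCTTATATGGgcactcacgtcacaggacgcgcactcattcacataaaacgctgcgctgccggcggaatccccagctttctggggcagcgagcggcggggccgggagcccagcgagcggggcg
Btg2: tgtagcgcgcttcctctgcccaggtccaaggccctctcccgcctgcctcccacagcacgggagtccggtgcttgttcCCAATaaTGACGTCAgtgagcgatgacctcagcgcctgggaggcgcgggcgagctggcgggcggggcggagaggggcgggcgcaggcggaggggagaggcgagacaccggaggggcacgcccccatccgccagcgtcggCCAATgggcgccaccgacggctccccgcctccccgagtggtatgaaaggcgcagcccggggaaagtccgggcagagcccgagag

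Of 1029 genes induced at day 2 (8.06% of those tested), 440 (42.8%) were raised further by day 4 (27.4% higher over all genes), 278 (27%) were lost (24.4% lower over all genes), meaning called lower than at day 2, and 276 (26.8%) were kept, meaning not called against day 2 and still called above day 0. The other 35 met neither rule. The lost share is near that of all genes that fell. These classes share the day 2 libraries with both steps and are a description. The lost genes had a median log2 fold change of -2.35 from day 2 to day 4, and 153 of them were not called against day 0 at day 4, 93 were called below it and 32 above it. Of the kept genes 207 stayed within 0.5 in log2 of their day 2 level. Without a call, 22 were at least 2-fold higher and 6 at least 2-fold lower. The class sizes follow from the threshold, and the 2 WT day 0 libraries behind them differed by over 2-fold for 1139 genes. With 1 library left out, 96 to 273 genes were lost, 105 to 246 kept and 72 to 285 raised further.

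Cytokine genes were among the lost class too. Il6, with 0 counts at day 0, held 18.1 and 1.5 CPM at day 2 and 0.72 and 0.615 CPM at day 4 (log2 fold change -3.87 ± 1.3, adjusted p = 0.0418), so its day 2 libraries were far apart. Its call ended without WT day 2 replicate 1 (adjusted p = 0.403), WT day 4 replicate 1 (0.16) or WT day 4 replicate 2 (0.171). With all libraries kept, Il6 was not called by limma-voom (adjusted p = 0.247), on log2(TPM + 1) (0.0637), without a low-count filter (0.0621), or when the 6 WT libraries (0.0773) or those of the comparison (0.0635) were fitted alone. Ccl2, which draws monocytes, held 3.43 and 4.7 CPM at day 0, then 142 and 184 CPM at day 2 and 7.57 and 7.74 CPM at day 4 (log2 fold change -4.41 ± 0.23, adjusted p = 7.4e-06). Arc held 56.1 and 57.8 CPM at day 2 and 2.01 and 1.38 CPM at day 4 (-5.06 ± 0.57) and Egr3 held 53.5 and 59.8 CPM at day 2 and 0.72 and 0.308 CPM at day 4 (-6.76 ± 0.70). In Ccl2, Arc and Egr3 the 2 day 2 libraries were alike. That they lay above both day 4 libraries was required by the rule that named these genes.

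Among kept genes, Mycl, a MYC relative, held 0.233 and 0.442 CPM at day 0, then 9.71 and 11.2 CPM at day 2 and 23.2 and 29.1 CPM at day 4 (log2 fold change 1.32 ± 0.51, adjusted p = 0.0578). Rufy4, which acts in autophagy, held 16.6 and 14.2 CPM at day 2 and 62.4 and 76.2 CPM at day 4 (log2 fold change 2.17 ± 0.77, adjusted p = 0.05), and Mst1r, the receptor RON, held 9.1 and 13.2 CPM at day 2 and 50 and 84 CPM at day 4 (log2 fold change 2.59 ± 0.97, adjusted p = 0.053). In these the day 4 libraries were above the day 2 libraries, and kept means only that the threshold was missed. Rufy4, Mst1r and Mycl were called when the 6 WT libraries were fitted alone (adjusted p = 0.00178, 0.00484 and 0.00763). Itga2, the alpha-2 integrin chain, had 0 counts at day 0, then 8.71 and 8.55 CPM at day 2 and 17 and 26.6 CPM at day 4 (log2 fold change 1.34 ± 0.97, adjusted p = 0.276; adjusted p = 0.0175 with the 6 WT libraries alone). Pgf, placental growth factor, held 9.1 and 10.5 CPM at day 2 and 9.37 and 6.36 CPM at day 4 and overlapped between the days (log2 fold change -0.32 ± 0.38, adjusted p = 0.496).

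Genes raised further include the effectors above and others. Scin, the actin-severing protein scinderin, had 0 counts at day 0, then 22 and 20.5 CPM at day 2 and 158 and 221 CPM at day 4 (log2 fold change 3.15 ± 0.93, adjusted p = 0.0261). Slc9b2, a sodium-proton exchanger of osteoclasts, held 0.64 and 0.331 CPM at day 0, then 43.5 and 43.5 CPM at day 2 and 270.1 and 333 CPM at day 4 (log2 fold change 2.79 ± 0.73, adjusted p = 0.0137). Both rose at each step. Vim, the intermediate filament protein vimentin, held 598 and 618, then 1444 and 1585 CPM at day 2 and 4708 and 4566 CPM at day 4 (log2 fold change 1.61 ± 0.22, adjusted p = 0.000535). Scin lost its call without any 1 of the 4 libraries (adjusted p from 0.0627 to 0.117), and Slc9b2 without either day 2 library or WT day 4 replicate 2 (0.0557 to 0.075).

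**Figure D3:**
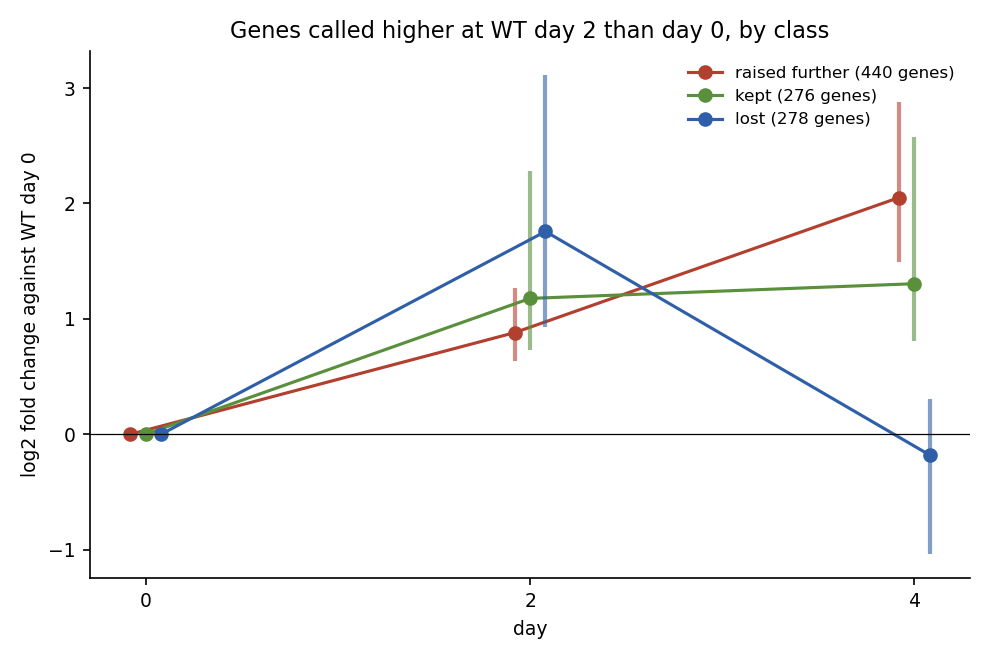
Median log2 fold change against WT day 0 of genes called higher at day 2, at days 0, 2 and 4, for the 440 raised further, the 276 kept and the 278 lost; vertical bars span the quartiles. The lost class had the highest median at day 2 (1.76) and ended at -0.18, the kept class went from 1.18 to 1.3, and the raised class from 0.88 to 2.05. The classes were cut by the calls of day 4 against day 2, so the day 4 order is built in.

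Genes that had fallen in the first step divided in the second. Of 1182 genes lowered at day 2 (9.25% of those tested), 504 (42.6%) went lower still, 387 (32.7%) stayed low and 226 (19.1%) came back up, against 24.4% lower and 27.4% higher from day 2 to day 4 over all genes. Of the 3497 late rises, 2831 (81%) had not been called at day 2, and of the 3122 late falls 2340 (75%). Over all genes tested 10563 (82.7%) were not called at day 2, so neither share is above the background, and a gene without a call may still have moved. Those that came back include Idi1, an enzyme of sterol synthesis, from 3.9 and 5.69 CPM at day 0 to 2.39 and 2.17 CPM at day 2 and 19.6 and 21.1 CPM at day 4.

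The largest late rises by the rule used (10 largest, mean of at least 5 CPM) were all from genes under 10 CPM at day 2. Aqp9, a glycerol channel of osteoclasts, held 0.166 and 0.301 CPM at day 2 and 25 and 26.3 CPM at day 4 (log2 fold change 6.74 ± 1.19, adjusted p = 0.00203). Bdh1, a mitochondrial ketone body enzyme, held 6.05 and 6.68 CPM at day 2 and 108 and 158 CPM at day 4 (log2 fold change 4.39 ± 0.45, adjusted p = 0.000175), and Mt3, a metallothionein, held 0.61 and 1.08 CPM at day 2 and 17.3 and 51.2 CPM at day 4 (log2 fold change 5.33 ± 0.96, adjusted p = 0.00311). Rises of this size are seen in both day 4 libraries, though the 2 Mt3 values are far apart. Ttn, the giant muscle protein titin, held 0.777 and 0.963 CPM at day 2 and 9.42 and 16.1 CPM at day 4 (log2 fold change 3.87 ± 0.64, adjusted p = 0.00132), Rhof, a small GTPase of filopodia, 3.72 and 4.15 CPM at day 2 and 43.6 and 69.4 CPM at day 4 (3.84 ± 0.68), and the serpin Serpinb6b 6.16 and 6.56 CPM at day 2 and 96.2 and 115 CPM at day 4 (4.05 ± 0.44). On the log2(TPM + 1) scale Ttn was not called (adjusted p = 0.0926). Nyap2 (4.12), Cacnb2 (4.32) and Serpind1 (4.81) complete the list beside Oscar; Serpind1 lost its call without any 1 of the 4 libraries, Cacnb2 without each but WT day 4 replicate 2, and Nyap2 without WT day 2 replicate 2 (adjusted p = 0.0525).

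At the other end, Slco2b1, an organic anion transporter, held 1025 counts over the day 2 group and 0 over the day 4 group, at least 384-fold lower over a floor of 3 counts per group. Apoc2, an apolipoprotein, held 1060 counts against 1, a ratio of 1192 with an exact 95% interval of 213 to 47108; such floors and intervals cover counting error only. Csf3r, the G-CSF receptor, held 155 and 118 CPM at day 2 and 0.72 and 0.256 CPM at day 4 (log2 fold change -8.10 ± 0.48, adjusted p = 1.47e-05). Trf, transferrin, held 2310.0 and 2052 CPM at day 2 and 19 and 13.9 CPM at day 4 (log2 fold change -7.05 ± 0.23, adjusted p = 1.49e-06). Cd4, which mouse macrophages can carry, held 27.4 and 45.4 CPM at day 2 and 0.206 and 0.154 CPM at day 4 (-7.61 ± 1.10). Ppbp, a platelet chemokine, held 41.1 and 25.8 CPM at day 2 and 0.051 and 0.205 CPM at day 4 (-7.95 ± 0.95). By limma-voom, Slco2b1 and Apoc2 were not called (adjusted p = 0.117 and 0.0812).

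Macrophage identity genes fell in the second step. Of 33 genes tested, 32 fell and 0 rose (median -3.86, with 24.4% lower over all genes), 28 by at least 4-fold. From day 0 to day 2, 7 had been called lower (9.25% over all genes). Their summed TPM was 133729 and 97907 at day 0, 60293 and 61159 at day 2 and 5127 and 4681 at day 4. Lyz2, lysozyme, held 41319 and 36018 CPM at day 0, then 15261 and 16104 CPM at day 2 and 832 and 736 CPM at day 4 (log2 fold change -4.32 ± 0.26, adjusted p = 1.23e-05). Mertk, the receptor for engulfing dead cells, held 221 and 194 CPM at day 2 and 4.01 and 4.1 CPM at day 4 (log2 fold change -5.68 ± 0.24, adjusted p = 2.86e-06), and Clec4n, the fungal sensor dectin-2, held 481 and 378 CPM at day 2 and 5.61 and 3.08 CPM at day 4 (-6.63 ± 0.35). The days did not overlap in any of the 3, as in 83.7% of all genes. Adgre1, which encodes F4/80, fell by 3.86 ± 0.41 and Mrc1, the mannose receptor, by 4.93 ± 0.52. Cd68, a lysosomal glycoprotein that osteoclasts also carry, was the 1 gene not called, with 977 and 922 CPM at day 2 and 799 and 935 CPM at day 4 (log2 fold change -0.13 ± 0.16, adjusted p = 0.504).

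Regulators that hold osteoclast formation back fell with them, 12 of 21 tested, with 1, the NF-kB inhibitor Nfkbia, higher (median -1.77). Irf8, a macrophage factor that restrains RANKL responses, held 377 and 264 CPM at day 0, then 197 and 199.9 CPM at day 2 and 11.3 and 4.56 CPM at day 4 (log2 fold change -4.64 ± 0.43, adjusted p = 0.000105). Id2, a helix-loop-helix inhibitor, held 40.6 and 36.5, then 412 and 334 CPM at day 2 and 16.8 and 17.1 CPM at day 4 (log2 fold change -4.46 ± 0.15, adjusted p = 1.49e-06). Irf8 was not called in the first step (-0.69), whereas Id2 had risen in it (3.28) and ended below its start. Cebpb (-3.65) and Nfkbiz (-4.97) followed the course of Id2 in being called higher at day 2 and lower at day 4.

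Genes of innate sensing fell as a group. Of 16 complement genes 13 fell and 0 rose (median -2.92), of 22 toll-like receptor genes 17 fell and 1 rose (-2.91), and of 29 inflammatory mediators 20 fell and 2 rose (-3.39). C1qb, a chain of the first complement component, held 2229.9 and 2257 CPM at day 2 and 67.8 and 34.4 CPM at day 4 (log2 fold change -5.46 ± 0.36, adjusted p = 1.87e-05), and C5ar1, the receptor for C5a, held 312 and 285 CPM at day 2 and 8.23 and 8.05 CPM at day 4 (-5.19 ± 0.28). Tlr2 fell from 340.1 and 249 to 31.1 and 27.7 CPM (-3.32 ± 0.21) and Tlr13 from 334 and 285 to 23 and 17.4 CPM (-3.94 ± 0.25). Nlrp3, the inflammasome sensor, had risen at day 2 from 56.4 and 60 CPM and then held 283 and 229 CPM at day 2 and 5.71 and 4.61 CPM at day 4 (log2 fold change -5.63 ± 0.27, adjusted p = 5.66e-06). The cytokine gene Osm held 9.6 and 7.01, then 191 and 146 CPM at day 2 and 7.62 and 7.69 CPM at day 4 (log2 fold change -4.46 ± 0.24, adjusted p = 8.02e-06). The 2 rises were the chemokine genes Cxcl10 (2.19 ± 0.74) and Ccl9 (1.11 ± 0.23); Cxcl10 was not called without WT day 2 replicate 1 or either day 4 library (adjusted p from 0.0684 to 0.182). The adaptor gene Myd88 was not called (log2 fold change -0.10 ± 0.20, adjusted p = 0.68).

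MHC class II genes, which present antigen, fell. All 8 tested genes fell (median -6.06). H2-Aa, the alpha chain of I-A, held 309.7 and 322 CPM at day 2 and 0.772 and 0.82 CPM at day 4 (log2 fold change -8.62 ± 1.46, adjusted p = 0.00188), Cd74, the invariant chain, 1668 and 1654 CPM at day 2 and 28.6 and 27.2 CPM at day 4 (log2 fold change -5.90 ± 0.86, adjusted p = 0.000949), and Ciita, the master regulator of the class, 11.7 and 12.5 CPM at day 2 and 0.154 and 0.154 CPM at day 4 (log2 fold change -6.23 ± 1.05, adjusted p = 0.00184). At day 0 the 2 libraries differed widely (151 and 10.9 CPM for H2-Aa), so the level before day 2 is uncertain. Of 15 MHC class I genes 7 fell and 1 rose (median -0.67), with B2m from 1511 and 1586 to 639 and 716 CPM (-1.19 ± 0.23). Of 34 interferon-stimulated genes 2 rose and 1 fell (median -0.03, and 0.03 on the TPM scale), Isg15 at 1.97 ± 0.67, Gbp7 at 1.31 ± 0.28 and Ifi204 at -1.61 ± 0.53. Isg15 lost its call without WT day 2 replicate 1 (adjusted p = 0.183) or WT day 4 replicate 2 (0.189), and Ifi204 without each of the 4 but WT day 2 replicate 1 (0.055 to 0.183). By limma-voom, H2-Aa and Ciita were not called (adjusted p = 0.0746 and 0.114).

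Most lysosome genes fell while those of the proton pump rose. Of 40 lysosome genes 29 fell and 3 rose (median -1.02), and their summed TPM went from 47204 and 42242 at day 2 to 15388 and 15332 at day 4. V-ATPase genes went from 5652 and 5414 to 10794 and 12522 TPM. Psap, the saposin precursor, fell from 12118 and 11661 to 2072 and 2037 CPM (log2 fold change -2.53 ± 0.34, adjusted p = 0.000485), Lamp1, a membrane glycoprotein, by 2.40 ± 0.20 and Man2b1, alpha-mannosidase, by 2.90 ± 0.20. Arsb (2.79) and Smpd1 (1.28), enzymes that break down glycosaminoglycans and sphingomyelin, were among those that rose. Iron handling had 11 falls and 5 rises among 19 genes (median -1.32), against 24.4% lower and 27.4% higher over all genes. Slc40a1, the iron exporter ferroportin, fell from 288 and 431 to 3.96 and 5.18 CPM (log2 fold change -6.29 ± 0.61, adjusted p = 0.000146), Hmox1, which frees iron from haem, from 1381 and 996 to 133 and 99.8 CPM (-3.35 ± 0.25), and the ferritin heavy chain gene Fth1 from 9644 and 8206 to 1598 and 1531 CPM (-2.51 ± 0.28). Steap3, a metalloreductase, rose (1.26), and the transferrin receptor gene Tfrc was not called (log2 fold change 0.94 ± 0.57, adjusted p = 0.198).

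Nuclear genes of oxidative phosphorylation, the mitochondrial ribosome and the TCA cycle rose nearly without exception, those of mitochondrial biogenesis less uniformly. Of 54 oxidative phosphorylation genes 53 rose and 0 fell (median 1.13; 27.4% higher over all genes), of 50 mitochondrial ribosome genes 50 rose (1.13), of 25 TCA cycle genes 24 rose (1.24) and of 22 mitochondrial biogenesis genes 17 rose (1.17). Ndufs8, a complex I subunit, held 18.6 and 19.9 CPM at day 2 and 60.3 and 63.9 CPM at day 4 (log2 fold change 1.69 ± 0.13, adjusted p = 3.41e-05). Cs, citrate synthase, held 238 and 241 CPM at day 2 and 658 and 794 CPM at day 4 (log2 fold change 1.60 ± 0.14, adjusted p = 8.13e-05), and Cycs, cytochrome c, 18.5 and 20 CPM at day 2 and 66.7 and 70.9 CPM at day 4 (1.84 ± 0.19). Tfam, the transcription factor of the mitochondrial genome, rose from 26.3 and 23.2 to 48.7 and 47.4 CPM (0.96 ± 0.13) and Esrra, the nuclear receptor that drives such genes, from 41.7 and 47 to 79.8 and 87.4 CPM (0.91 ± 0.12). Every value at day 4 in these 5 genes exceeded every value at day 2, and 83.7% of all genes did not overlap between the days. The 13 RNAs of the mitochondrial genome itself gave 0 calls in edgeR (median 0.24; 2 at an unadjusted p under 0.05), 0 in DESeq2 and limma-voom and 1 on the log2(TPM + 1) scale, with 37644 and 37030.0 summed TPM at day 2 and 43124 and 47066 at day 4. Of the 54 nuclear oxidative phosphorylation genes 10 had been called higher at day 2 than at day 0 (8.06% over all genes).

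**Figure D4:**
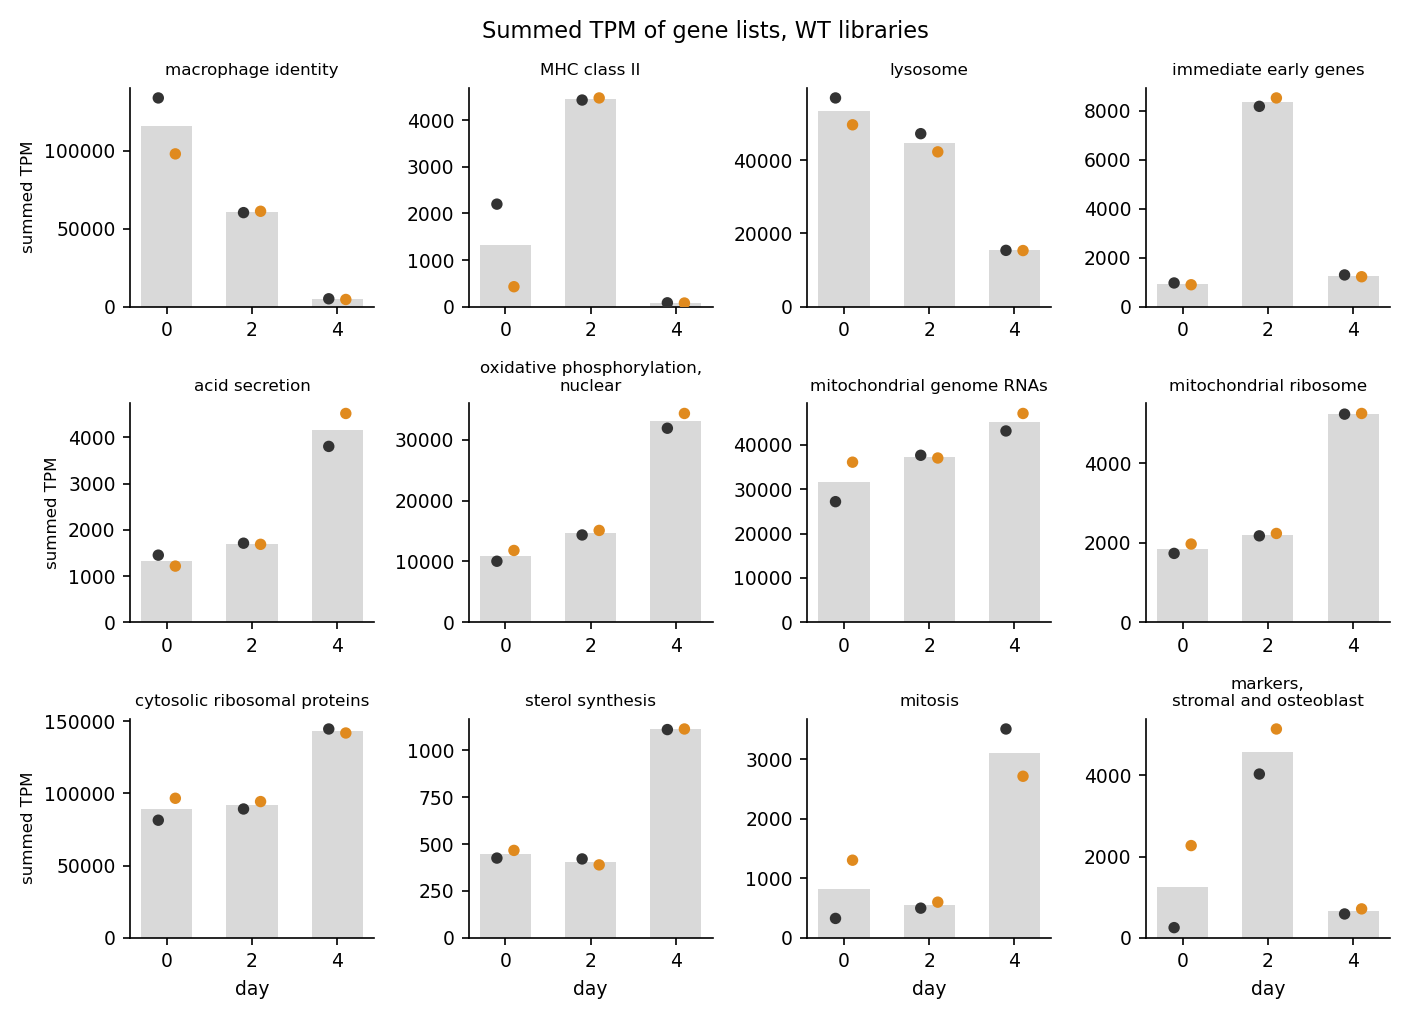
Summed TPM of 12 gene lists in each WT library at days 0, 2 and 4; bars are group means, black points replicate 1 and orange points replicate 2. Macrophage, MHC class II, lysosome and immediate early sums fell from day 2 to day 4, and nuclear oxidative phosphorylation (14349 and 15096 to 31882 and 34308 TPM), ribosome, sterol and mitosis sums rose. Axes start at 0 and differ between panels.

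Genes of biosynthesis rose as well. Of 67 cytosolic ribosomal protein genes 61 rose and 0 fell (median 0.66), and of 34 ribosome assembly genes 33 rose (1.28), led by Dkc1, dyskerin, from 25.9 and 30.5 to 136 and 115 CPM (log2 fold change 2.15 ± 0.31, adjusted p = 0.000744). Of 26 nucleotide and one-carbon genes 23 rose and 0 fell (1.58). Mthfd2, the mitochondrial folate enzyme, rose from 26 and 32.5 to 239 and 261 CPM (log2 fold change 3.10 ± 0.53, adjusted p = 0.00199) and Shmt1 from 9.43 and 7.82 to 38.8 and 40.3 CPM (2.19 ± 0.30). Of 23 sterol synthesis genes 20 rose and 0 fell (1.47), after 2 rises and 5 falls in the first step (8.06% and 9.25% over all genes). Fdps, the enzyme that bisphosphonate drugs block in osteoclasts, held 15.6 and 15.4 CPM at day 2 and 107 and 100.2 CPM at day 4 (log2 fold change 2.74 ± 0.20, adjusted p = 3.14e-05), and Sqle, squalene epoxidase, 19.4 and 17 CPM at day 2 and 91 and 90.4 CPM at day 4 (2.32 ± 0.49). Fatty acid synthesis had 11 rises and 2 falls among 21 genes, with Acly, the enzyme that makes cytosolic acetyl-CoA, at 0.87 ± 0.09. In the unfolded protein response list 12 of 27 genes rose and 2 fell (median 0.22), against 27.4% higher and 24.4% lower over all genes.

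Glycolysis went another way. Of 30 glycolysis and hypoxia genes, 20 had risen at day 2 (8.06% over all genes). From day 2 to day 4 11 fell and 4 rose (median -0.07), against 24.4% lower and 27.4% higher over all genes. The summed TPM was 13569 and 11819 at day 2 and 13012 and 12552 at day 4. The hypoxia targets Vegfa and Slc16a3 fell back. Vegfa, the angiogenic factor, held 89.5 and 96.5 CPM at day 0, then 1029 and 828 CPM at day 2 and 84 and 80.1 CPM at day 4 (log2 fold change -3.50 ± 0.42, adjusted p = 0.000336). Slc16a3, the lactate exporter, held 34.7 and 34.2, then 238 and 188 CPM at day 2 and 46 and 35.2 CPM at day 4 (log2 fold change -2.39 ± 0.20, adjusted p = 5.26e-05). Neither was called at day 4 against day 0. Pfkfb3, which drives glycolytic flux, fell by 3.98 ± 0.63, while Ldha, lactate dehydrogenase, stayed at 1139 and 996 CPM at day 2 and 1293 and 1198 CPM at day 4 (log2 fold change 0.22 ± 0.21, adjusted p = 0.396).

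Proliferation genes rose in the second step. All 40 mitosis genes tested were higher at day 4 (median 2.58), as were 38 of 40 DNA replication genes (1.85), with 0 falls. At day 2, 0 and 3 of them, respectively, had been called higher than at day 0, against 8.06% over all genes. The replication count was thus near the background of the first step. Mki67, the Ki-67 antigen, held 88.1 and 314 CPM at day 0, then 103 and 104 CPM at day 2 and 835 and 588 CPM at day 4 (log2 fold change 2.78 ± 0.54, adjusted p = 0.00347). Cdc20, the activator of the anaphase-promoting complex, held 5.88 and 35.6, then 15.6 and 20.3 CPM at day 2 and 142 and 113 CPM at day 4 (log2 fold change 2.83 ± 0.72, adjusted p = 0.012). Mcm6, a helicase subunit of replication origins, held 33.3 and 50.2, then 70 and 78.2 CPM at day 2 and 366 and 297 CPM at day 4 (log2 fold change 2.16 ± 0.27, adjusted p = 0.000386), and Cdt1, which loads that helicase, 11.3 and 12.1, then 14 and 16.1 CPM at day 2 and 99.3 and 88.4 CPM at day 4 (log2 fold change 2.64 ± 0.30, adjusted p = 0.000244). In all 4 the day 4 libraries stood well above day 2, but the WT day 0 libraries differed up to several-fold, so Mki67 and Cdc20 at day 0 have no single level. Of 21 genes of cyclins, their kinases and inhibitors, 9 were higher and 5 lower (median 0.62). Over all genes 27.4% were higher and 24.4% lower, so the falls were near the background. Ccne2 rose by 2.42 ± 0.47 and the kinase gene Cdk6 by 2.10 ± 0.27. The inhibitor gene Cdkn1a (-2.13) and the retinoblastoma gene Rb1 (-1.55) fell, and the inhibitor gene Cdkn2c (1.74) rose. Cdc20 was not called without WT day 2 replicate 1 (adjusted p = 0.0793) or replicate 2 (0.0544).

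Promoter windows of both groups were searched in the same way. The CHR element TTTGAA, known from cell cycle genes of mitosis, was in 25 of 36 windows of the mitosis genes (69.4%), in 6 of 40 of the replication genes (15%) and in 12.1% of the windows of all tested genes. An E2F site (TTTCCCGC or TTTGGCGC) was in 1 of 36 (2.78%), 12 of 40 (30%) and 2.85%. CCAAT was in 27 of 36 (75%), 24 of 40 (60%) and 37.3%. Over all 3446 windows of genes called higher, CHR was in 14.3%, E2F in 4.35% and CCAAT in 41.8%. The windows shown mark in capitals CCAAT and CHR for Mki67 and Cdc20, E2F and CCAAT for Mcm6, and E2F for Cdt1. The windows are chr7:135716330-135716629 (minus strand), chr4:118437294-118437593 (minus), chr1:128359656-128359955 (minus) and chr8:122567765-122568064 (plus).
Mki67: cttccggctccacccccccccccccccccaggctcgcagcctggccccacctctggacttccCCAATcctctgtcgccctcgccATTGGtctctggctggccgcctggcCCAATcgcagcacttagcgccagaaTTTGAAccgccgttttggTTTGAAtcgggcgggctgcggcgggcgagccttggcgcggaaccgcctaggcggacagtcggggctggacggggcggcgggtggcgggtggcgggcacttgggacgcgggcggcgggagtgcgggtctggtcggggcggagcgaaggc
Cdc20: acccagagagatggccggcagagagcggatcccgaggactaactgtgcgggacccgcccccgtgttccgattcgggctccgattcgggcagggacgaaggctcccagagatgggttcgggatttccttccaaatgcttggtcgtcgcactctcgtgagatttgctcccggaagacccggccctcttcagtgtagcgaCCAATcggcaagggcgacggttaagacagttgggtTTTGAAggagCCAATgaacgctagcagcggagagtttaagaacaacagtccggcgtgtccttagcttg
Mcm6: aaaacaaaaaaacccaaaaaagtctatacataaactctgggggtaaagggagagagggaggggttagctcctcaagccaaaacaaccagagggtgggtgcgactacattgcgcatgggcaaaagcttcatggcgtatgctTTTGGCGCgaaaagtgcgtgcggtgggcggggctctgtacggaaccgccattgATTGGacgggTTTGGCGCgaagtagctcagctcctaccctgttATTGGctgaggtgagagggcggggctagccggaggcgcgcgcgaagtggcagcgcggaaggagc
Cdt1: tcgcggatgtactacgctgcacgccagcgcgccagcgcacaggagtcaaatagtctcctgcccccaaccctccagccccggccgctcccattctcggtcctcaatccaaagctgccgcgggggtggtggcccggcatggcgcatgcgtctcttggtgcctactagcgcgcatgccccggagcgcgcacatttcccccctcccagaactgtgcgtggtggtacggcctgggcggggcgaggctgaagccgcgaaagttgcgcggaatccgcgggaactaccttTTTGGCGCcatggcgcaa

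Survival and p53 genes changed in part, beside 27.4% higher and 24.4% lower over all genes. Of 19 BCL2 family and death genes 3 rose and 7 fell (median -0.20). Bcl2l1, the survival protein BCL-XL, fell from 53.3 and 44 to 13.4 and 12.3 CPM (log2 fold change -1.92 ± 0.18, adjusted p = 8.57e-05), and Bak1, a pore former, rose from 62 and 69.9 to 147 and 149 CPM (1.17 ± 0.11). Of 16 p53 targets 3 rose and 7 fell (-0.55). Factors by which osteoclasts signal to bone-forming cells fell in 6 of 15 cases and rose in 1, Sema4d (0.92 ± 0.18), whose values are identical to those of another listed name. Igf1 held 1246 and 1020.0 CPM at day 0, then 333 and 338 CPM at day 2 and 9.26 and 7.74 CPM at day 4 (log2 fold change -5.30 ± 0.24, adjusted p = 4.14e-06), and Tgfb1 fell from 273 and 278 to 114 and 127 CPM (-1.20 ± 0.19).

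**Figure D5:**
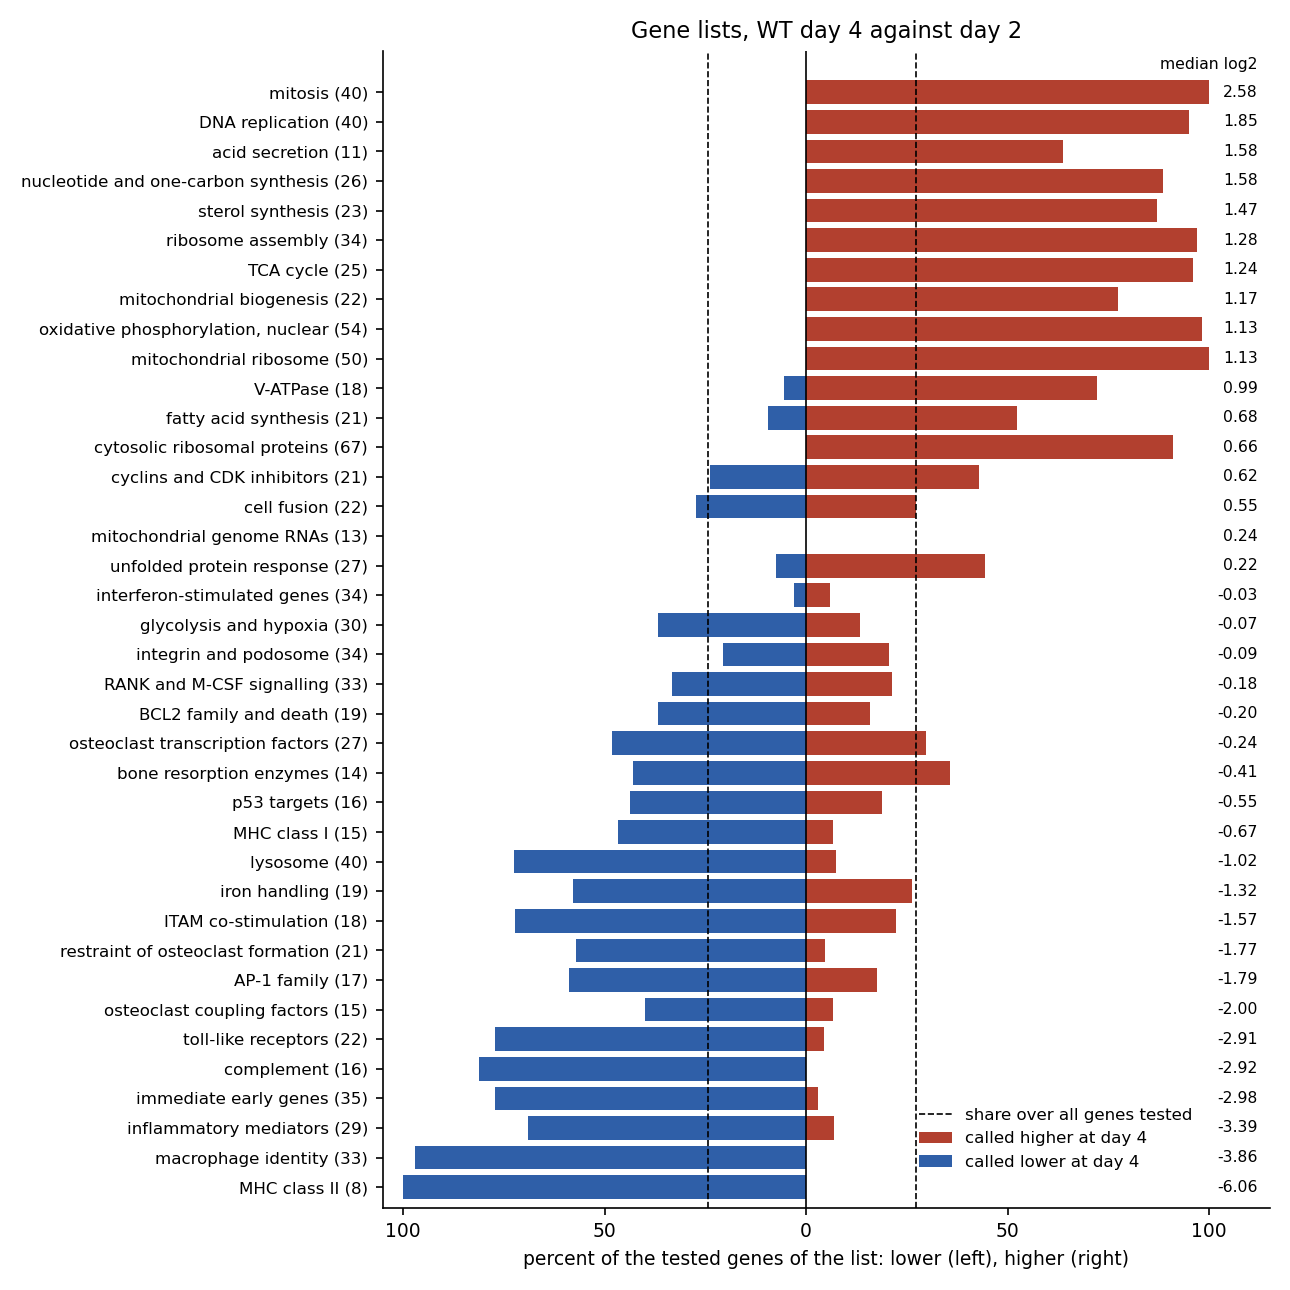
Percent of the tested genes of each list called lower (blue, left) or higher (red, right) at WT day 4 than at day 2, ordered by the median log2 fold change printed at the right; numbers of genes tested are in brackets and dashed lines mark the shares over all genes (24.4% and 27.4%). Mitosis and mitochondrial ribosome genes are all higher, and MHC class II genes all lower.

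The most abundant mRNAs changed places. Lyz2 went from 24359.9 and 25969.9 TPM at day 2 to 1388 and 1199 TPM at day 4, Fth1 from 26806 and 22935 to 4622 and 4324 and Apoe from 8147 and 9342 to 181 and 166. Ctsk, at 7722 and 9880.1 TPM, was among the 10 most abundant at day 4 and not at day 2, and so were Acp5 (847 and 970.2, then 4197 and 5483 TPM) and Vim (1709 and 1807, then 5672 and 5373 TPM).

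Mean summed TPM fell in every list of markers of other cell types. Calls were few, with 1 to 5 genes tested in most lists. Over all genes 24.4% were called lower, a larger share than in the stromal and dendritic cell lists. Stromal and osteoblast markers summed to 4033 and 5143 TPM at day 2 and to 588 and 713 TPM at day 4, with 3 of 19 tested called lower and 0 higher (median -2.73). Col1a1, collagen I, held 1482 and 2038 CPM at day 2 and 266 and 333 CPM at day 4 (log2 fold change -2.56 ± 1.56, adjusted p = 0.197; 0.000191 with the libraries of the comparison fitted alone) and Cxcl12 3.94 and 21.8 CPM at day 2 and 0.051 and 0.461 CPM at day 4 (log2 fold change -5.61 ± 1.80, adjusted p = 0.0308; not called without WT day 2 replicate 2 or either day 4 library, adjusted p from 0.087 to 0.155), while the osteocalcin gene Bglap was at 0 counts at both days. Megakaryocyte markers went from 4149.9 and 2657 to 81.1 and 56.9 TPM, mostly Pf4 (782 and 502 CPM at day 2 and 14.5 and 10 CPM at day 4), with 3 of 5 tested called lower, among them Ppbp from 41.1 and 25.8 to 0.051 and 0.205 CPM, and Gp9 and Gp6 at 0 counts at both days. B cell markers were at 14.2 and 14.2, then 0.66 and 1.74 TPM, with 2 of 3 tested called lower, Cd79b at 68 counts over day 2 and 2 over day 4, and Cd79a and Pax5 at 0 counts. T and NK cell markers were at 94.7 and 99.3, then 5.78 and 4.41 TPM, with 2 of 3 tested called lower and Cd3e, Cd3g and Cd8a at 0 counts. Neutrophil markers held 5.99 to 27 TPM over the 4 libraries (1 of 3 tested called lower) with Ly6g, Mpo and Elane at 0 counts, dendritic cell markers 258 to 451 TPM (1 of 8) with Cd209a at 0 counts, mast cell and basophil markers 2.4 to 24.1 TPM (1 of 4) with Cpa3 at 0 counts, and erythroid markers 0.28 to 2.35 TPM (1 of 1) with the globin genes at 0 counts. The stromal sum fell beside the falls of Mmp13, Igf1 and the coupling factors, and its part in them was not tested.

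In Arid1a KO cells the same step was measured in libraries not shared with WT. Of 12774 genes 5459 (42.7%) were called, 2829 (22.1%) higher and 2630 (20.6%) lower, and 395 (3.09%) had a log2 change that differed between KO and WT, 267 with the KO change higher and 128 lower. This number rested on single libraries. It was 3 without WT day 4 replicate 2 and 1639 without KO day 4 replicate 1, and 1237 genes differed by over 2-fold between the 2 KO day 4 libraries. Among macrophage identity genes, where 32 fell in WT and 21 in KO, 18 of 33 had a KO change above the WT change and 0 below. Csf3r held 262 and 249 CPM at KO day 2 and 15.3 and 29.3 CPM at KO day 4 (KO minus WT 4.58 ± 0.56, adjusted p = 0.0131). Lyz2 was low in KO at both days, with 89.9 and 74 CPM at KO day 2 and 64.1 and 42.3 CPM at KO day 4. Of 23 sterol genes, 7 had a KO change below the WT change, Idi1 among them (-1.69). For Ctsk (adjusted p = 0.528), Nfatc1 (0.232) and Siglec15 (0.392) no difference was called. The KO minus WT values were 1.87 ± 1.41, -1.18 ± 0.48 and 5.24 ± 2.88. Siglec15 held 0 CPM in both KO day 2 libraries and 5.38 and 0.388 CPM at KO day 4, so its fitted value is no measure of size. Ctsk held 22.5 and 8.32 CPM at KO day 2 and 1503 and 94.4 CPM at KO day 4. In each of these genes both KO day 4 libraries were below both WT day 4 libraries.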

How the data were processed

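Total RNA of the 12 RNA-seq libraries was sequenced, 2 for each genotype and day. The authors deposited estimated counts per gene, written as whole numbers, and TPM per gene; the labels do not say how counts were assigned. Trim Galore 0.6.1, STAR 2.7.3a, RSEM 1.3.1, SAMtools 1.9, Picard 1.90 and the builds mm9 and mm10 are named, per the submitters' processing notes, without their roles. Strand and gene models are not given in the sources used here, so overlapping and antisense genes cannot be told apart. Of the listed names 93.2% were RefSeq symbols, 26 had turned into dates, and 1333 shared all counts with another name (100 of them tested).

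The deposited counts were filtered with filterByExpr (minimum count 10), scaled with TMM and fitted over all 12 libraries with edgeR 4.0.16 (quasi-likelihood F test, robust, R 4.3.3), with genotype and day as one factor and Benjamini-Hochberg adjustment over all genes tested. CPM used TMM-scaled library sizes, and TPM was used to compare levels between genes and to sum lists. The alternatives were DESeq2 1.42.0, limma 3.58.1 (voom, or log2(TPM + 1)), other filters, fits on fewer libraries, each library left out in turn, and a block for the replicate number; keeping identical names once was added after seeing the data. The code was tested on simulated data.

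The comparison and the gene lists were chosen with earlier results of these data known. Genes named by rule were 20 osteoclast genes, the 10 largest rises and falls (mean of at least 5 CPM), the largest day 2 rises of each class, up to 4 members of each list with the smallest adjusted p, the most abundant genes and those that differed most in KO; some were left out, and other list members named were chosen after their values were seen. Results for a few genes are not reported here. Figures were drawn with matplotlib 3.10.9.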

Additional observations from a re-analysis of the deposited data

Results flagged for a closer look

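The genes below are named in the report and had a change from day 2 to day 4 that differed between Arid1a KO and WT in edgeR's interaction term, with n = 2 libraries a group. Values in brackets are the KO minus WT difference of the log2 fold change ± SE, then the adjusted p. The KO change was above the WT change for Adgre1 (3.53 ± 0.53, 0.0211), Bcl2l1 (1.87 ± 0.24, 0.0138), C1qb (3.03 ± 0.43, 0.017), C5ar1 (3.13 ± 0.34, 0.0109), Ccl2 (2.86 ± 0.29, 0.00881), Cd36 (3.22 ± 0.35, 0.0109), Cd81 (1.60 ± 0.33, 0.0415), Clec4n (3.66 ± 0.41, 0.0112), Csf3r (4.58 ± 0.56, 0.0131), Ctsd (1.75 ± 0.32, 0.0318), Dusp1 (1.58 ± 0.34, 0.0478), Fcgr3 (2.78 ± 0.34, 0.0125), Hmox1 (1.84 ± 0.32, 0.0286), Id2 (0.95 ± 0.18, 0.036), Igf1 (3.38 ± 0.29, 0.00557), Itgam (1.86 ± 0.35, 0.0337), Lyz2 (3.70 ± 0.34, 0.00557), Mertk (3.13 ± 0.28, 0.00557), Mrc1 (3.14 ± 0.64, 0.0435), Nfkbiz (2.11 ± 0.33, 0.0218), Nlrp3 (2.82 ± 0.32, 0.0125), Pf4 (3.94 ± 0.55, 0.017), Pgf (4.57 ± 0.56, 0.0125), Slc40a1 (3.76 ± 0.71, 0.0376), Tlr13 (2.47 ± 0.32, 0.0138) and Trf (1.46 ± 0.26, 0.0276).

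The KO change was below the WT change for Acly (-0.60 ± 0.13, 0.0486), Fdps (-1.33 ± 0.27, 0.0403), Idi1 (-1.69 ± 0.36, 0.0445), Ndufs8 (-1.32 ± 0.18, 0.0145), Osm (-2.15 ± 0.31, 0.017) and Snx10 (-1.76 ± 0.29, 0.0239).

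The KO day 4 libraries were far apart, and leaving out 1 library moved the number of such genes over all genes tested from 395 to between 3 and 1639, so the list of genes rests on single libraries.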

How the results depend on the processing

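The direction of the late step held for the named genes under other scalings, filters and tests, and the calls rested on 2 libraries a group. Of 6619 calls, 3689 also passed a log2 fold change of at least 1 (1615 higher, 2074 lower). With that size limit 181 induced genes were lost, 180 kept and 149 raised further, 1415 late rises were not called at day 2, 51 late rises had been lowered at day 2 and 132 late falls had been lowered already. The DESeq2 Wald test gave 477 lost, 702 raised further and 1095 KO differences. The 6 WT libraries alone gave 691 raised further. On the TPM scale 108 late rises had been lowered at day 2 and 296 late falls had been lowered already, and the interferon-stimulated list had a median log2 fold change of 0.0292 in place of -0.03. KO differences numbered 223 by limma-voom and 38 when the libraries of the comparison were fitted alone. Of the named genes, Cxcl10, Cxcl12, Dcstamp, Ifi204, Il6, Isg15, Oscar and Scin were not called without a low-count filter (adjusted p from 0.0515 to 0.0673). Apoc2, Ciita, Cxcl10, Cxcl12, H2-Aa, Il6, Isg15, Mmp13 and Slco2b1 were not called by limma-voom (0.0735 to 0.247), nor Il6 and Ttn on log2(TPM + 1) (0.0637 and 0.0926). The cause of these shifts was not tested.

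With 1 library left out, the number of genes called was 4559 to 6920, with 2310 to 3582 higher and 2024 to 3340 lower. Lost genes numbered 96 to 273, kept genes 105 to 246 and genes raised further 72 to 285. Late rises not called at day 2 numbered 2104 to 3179, late rises lowered at day 2 33 to 207, late falls not called at day 2 1528 to 2870 and late falls lowered already 71 to 349. KO differences numbered 3 to 1639. These fits had fewer samples.

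The replicate number as a block gave 6513 calls, 3452 higher and 3061 lower. Among the genes named in the report it gave a call for Atp6v0d2 (adjusted p = 0.0403), Rufy4 (0.0464) and Tfrc (0.0319) and none for Calcr (0.0532) and Il6 (0.0744). Deviations of same-numbered libraries across genes correlated at 0.17 (days 0 and 2), 0.114 (days 0 and 4) and 0.268 (days 2 and 4) within WT, at 0.526, 0.39 and 0.431 within KO, and at -0.483 to 0.0426 between the genotypes. The labels do not say that a number marks a shared source, and 2 numbers are too few to show one, so the samples were not treated as paired. The KO comparison could not be fitted with the 6 WT libraries alone. With 2 libraries a group and a common biological coefficient of variation of 0.261, low-count genes are least certain.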
